A study of Homo sapiens with 36 samples.

Results

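The cyclin-dependent kinase (CDK) inhibitors are small proteins that hold back the kinases driving the cell cycle, and the transcripts of 8 of their genes were followed here in HCT116 cells depleted of UHRF1, DNMT1 or both. The genes CDKN1A, CDKN1B, CDKN1C, CDKN2A, CDKN2B, CDKN2C, CDKN2D and CDKN3 were taken by their symbols, without use of their measured values. All 8 were found among the 60462 annotated genes of the count tables, and all 8 passed the filter on low counts that kept 15415 of 19942 protein-coding genes. CDKN1C had the widest range of the 8, from 24.8 ± 1.58 CPM (read counts scaled to the size of their library; mean ± SD, n = 3) in WT cells on day 6 to 152 ± 61.6 CPM in doubly depleted cells on day 8.

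HCT116 is a human colorectal carcinoma line, and all cells of the study, WT included, carried the plant F-box protein OsTIR1 under a doxycycline-inducible promoter. OsTIR1 sends proteins with a mini auxin-inducible degron (mAID) tag to the proteasome when auxin is present. The tag was on UHRF1 in UHRF1-AID cells, on DNMT1 in DNMT1-AID cells and on both proteins in UHRF1/DNMT1-AID cells, and on neither in WT cells. DNMT1 copies DNA methylation onto newly made DNA, and UHRF1 recruits it to replicated sites. All 4 lines received 2 µg/mL doxycycline with 20 µM of the TIR1 blocker auxinole for a day, and then 2 µg/mL doxycycline with 500 µM auxin (Dox/Auxin) for 2, 6 or 8 days. PolyA RNA of 3 replicates of each line and day was sequenced, which gave 36 libraries in 12 groups, and the question was what the loss of each protein does to the transcriptome over time. Cell lines were made from single clones, generally 3 of them per tagged group, but the labels do not say which library came from which clone, so that the p-values below measure the spread between these libraries whatever its source. No untreated library was analysed here, so that Dox/Auxin itself and time in culture are seen only through WT. For the same reason, a difference between a degron line and WT may hold a standing difference of clone or tag. Depletion cannot be told apart from that in a comparison with WT. The paper reports closely similar transcriptomes of untreated WT and tagged lines, which was not checked here.

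The inhibitors fall into families with different targets. The CIP/KIP proteins p21 (CDKN1A), p27 (CDKN1B) and p57 (CDKN1C) bind complexes of cyclins with CDKs, chiefly CDK2. The INK4 proteins p16 (CDKN2A), p15 (CDKN2B), p18 (CDKN2C) and p19 (CDKN2D) bind CDK4 and CDK6 alone and keep them from the D-type cyclins, so that the retinoblastoma protein RB stays active and holds back E2F factors. CDKN3 encodes a phosphatase that removes the activating phosphate of CDK2 and CDK1, and its transcript is made mainly in cycling cells. CDKN2A also encodes ARF, which is read in another frame, and a gene count cannot separate p16 from ARF. In tumours, CDKN2A and CDKN2B are known to be silenced by promoter methylation, and CDKN1C is imprinted.

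Library totals ran from 21074536 to 37175136 counts with a median of 25031562.5, and no pair of libraries held equal counts. Of 10 intestinal epithelial markers, 7 reached a mean of 1 CPM, with EPCAM at 215 to 499 CPM, while CDX1, CDH17 and LGALS4 stayed below it. No leukocyte (0 of 5) or endothelial marker (0 of 3) and 1 of 6 fibroblast markers, COL1A1, reached that level. The summed leukocyte markers were nonetheless highest in UHRF1/DNMT1-AID cells on day 8, at 4.13 to 5.6 CPM against 0.0675 to 0.32 CPM in WT, and COL1A1 ranged from 2.04 to 82.2 CPM over all libraries. The part of these genes in the results below was not tested. In bulk RNA, fewer cells with a transcript and less of it per cell cannot be told apart. The degron acts on the protein, so the mRNA of the tagged genes is no check of it. DNMT1 mRNA did fall below WT in DNMT1-AID cells (log2 fold change −1.63, SE 0.21, adjusted p = 5.03e-07 on day 8), and by more in the doubly tagged line (−2.18, SE 0.21, adjusted p = 1.13e-09). UHRF1 mRNA was called lower in the latter on day 8 (−1.29, adjusted p = 7.29e-05).

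Levels of the genes were compared with each other as CPM per kilobase of annotated exon. The length was that of all exons annotated for a gene, whether or not its transcripts in these cells use them. CDKN1B, for example, has 9255 exon bases over 9 annotated transcripts. The order of the genes below therefore depends on the annotation as well as on expression. CDKN1A was the most abundant transcript, with a median of 102 CPM per kb over the 36 libraries. CDKN2A followed at 26.8, CDKN1C at 16.4, CDKN2D at 12.5 and CDKN3 at 11.7 CPM per kb. CDKN1B, at 5.72, and CDKN2C, at 5.62 CPM per kb, lay close together, and CDKN2B was lowest at 2.65 CPM per kb. The depth allowed all 8 to be measured in every library: the lowest count was 156 reads for CDKN2B, and CDKN1A had 4617 to 10432 reads.

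**Figure D1:**
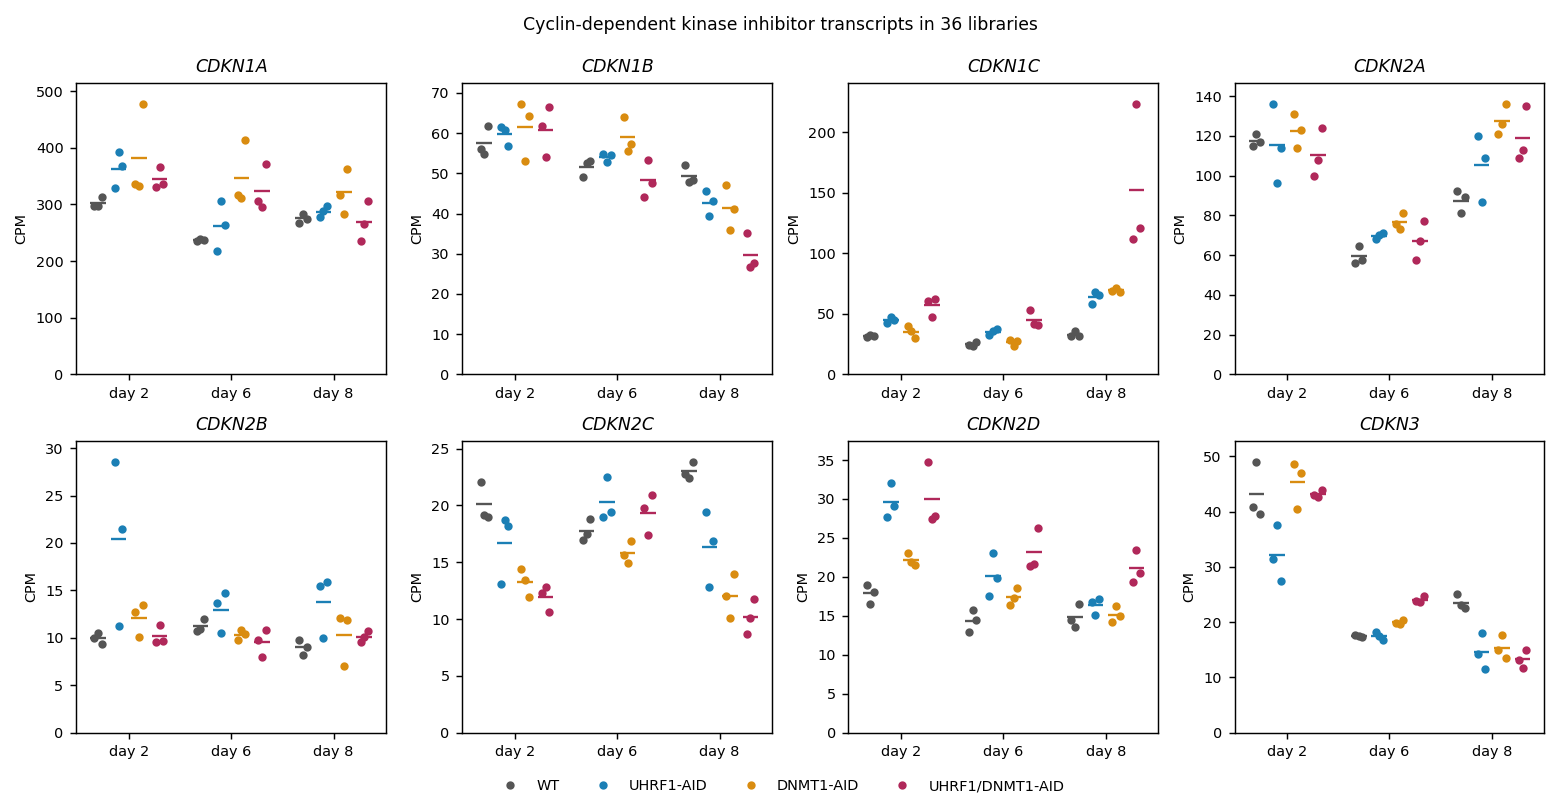
Levels of the 8 CDK inhibitor transcripts in CPM (vertical axes, each starting at 0) in each of the 36 libraries by day of Dox/Auxin, where points are libraries, colours are lines and short bars are means of 3. CDKN1C in UHRF1/DNMT1-AID cells on day 8, at 112 to 223 CPM, lay above every other library.

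To ask which inhibitors differed from WT in the depleted lines, libraries of every degron line were set against the WT libraries from the matching day. The 3 lines share the WT libraries of a day, so their comparisons are not independent. A gene was called when its Benjamini-Hochberg adjusted p from edgeR's quasi-likelihood test, over all 15415 genes, was under 0.05. In UHRF1-AID cells 3 members were higher and 1 lower on day 2, where 12.1% of all genes tested were called higher and 14.4% lower. On day 6, 2 were higher and 0 lower against 14.3% and 10.5% of all genes, and on day 8, 2 were higher and 2 lower against 24.2% and 21%. In DNMT1-AID cells 0 were higher and 1 lower on day 2 (2.67% and 0.714% of all genes), 2 higher and 0 lower on day 6 (8.84% and 4.35%), and 2 higher and 3 lower on day 8 (25.1% and 22.4%). In UHRF1/DNMT1-AID cells 2 were higher and 1 lower on day 2 (16.3% and 11.5%), 4 higher and 0 lower on day 6 (19% and 21.9%), and 3 higher and 3 lower on day 8 (35.7% and 32.8%). With 8 genes, these day 8 counts lie near the shares of all genes, so the number of calls is no finding about the inhibitors; the results are in which genes moved, which way and by how much. The median log2 fold change of the 8 lay between 0.05 and 0.31 over the 9 comparisons, and that of all genes between −0.05 and 0.03.

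**Figure D2:**
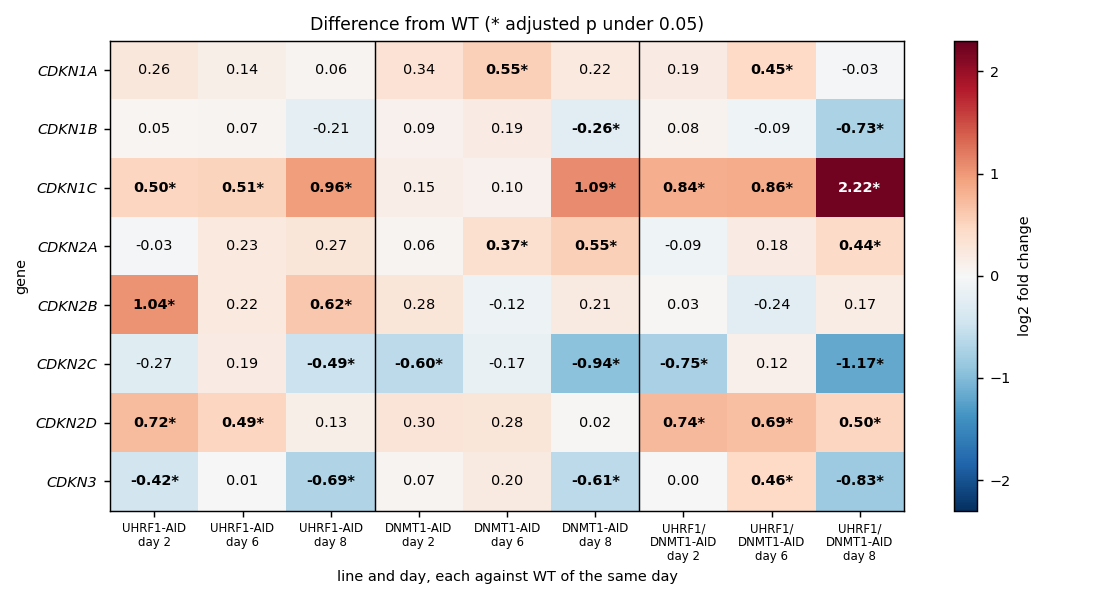
Log2 fold changes of the 8 genes (rows) in each degron line and day against WT of the same day (columns), with red for higher and blue for lower and an asterisk where the adjusted p was under 0.05. CDKN1C was higher in 7 of 9 columns, while CDKN2C and CDKN3 were lower in all 3 lines on day 8.

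CDKN1C encodes p57, the imprinted CIP/KIP inhibitor, and lies on the minus strand of chromosome 11 (chr11:2883213-2885775, GRCh38; ENSG00000129757). It rose in all 3 degron lines by day 8, and in both lines with tagged UHRF1 already on day 2. The 3 WT libraries of day 8 gave 31.4, 35.4 and 31.3 CPM. The UHRF1-AID libraries gave 57.9, 68.0 and 65.4 CPM and the DNMT1-AID libraries 69.1, 71.4 and 67.7 CPM. The UHRF1/DNMT1-AID libraries gave 112, 223 and 121 CPM. No degron library of that day overlapped WT, and replicate 2 of the doubly depleted cells stood far above the other two. Against WT, UHRF1-AID cells were 1.95-fold higher (log2 0.96, SE 0.16, adjusted p = 1.66e-05) and DNMT1-AID cells 2.12-fold higher (log2 1.09, SE 0.16, adjusted p = 3.01e-06). The doubly depleted cells were 4.66-fold higher (log2 2.22, SE 0.17, adjusted p = 9.78e-13). Without the high replicate 2 the last log2 fold change was 1.84 (adjusted p = 6.57e-15). It was 1.20 (adjusted p = 3.37e-07) once differences that run with GC content and transcript length were removed, and the other two day 8 calls held under that correction at 0.45 and 0.56.

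On the earlier days both lines with tagged UHRF1 were called against WT and DNMT1-AID was not. Compared directly, UHRF1-AID and DNMT1-AID were not called apart on day 2 (log2 0.35, adjusted p = 0.143) or day 6 (0.41, adjusted p = 0.11). Library size alone called day 2 (0.47, adjusted p = 0.0368), and a fit of only the libraries compared called day 6 (0.41, adjusted p = 0.0335). On day 2 the WT libraries gave 31.2, 32.4 and 31.7 CPM of CDKN1C, and the UHRF1/DNMT1-AID libraries 60.6, 47.7 and 62.5 CPM (1.79-fold; log2 0.84, SE 0.17, adjusted p = 0.000317). On day 6 the corresponding values were 24.2, 23.6 and 26.6 CPM and 52.8, 41.5 and 41.1 CPM (1.82-fold; log2 0.86, SE 0.16, adjusted p = 9.87e-05). The groups did not overlap on either day, and under the GC and length correction the differences were 0.47 (adjusted p = 0.0297) and 0.44 (adjusted p = 0.0323). UHRF1-AID cells were higher by 0.50 on the log2 scale on day 2 (SE 0.17, adjusted p = 0.0239) and by 0.51 on day 6 (SE 0.16, adjusted p = 0.023). Those calls were fragile: the first was lost without WT replicate 1, 2 or 3 or UHRF1-AID replicate 2 or 3, with 0.45 to 0.54 over the 6 omissions, and the second without WT replicate 1 or 2 or UHRF1-AID replicate 2 or 3 (0.47 to 0.56) and with the GC and length correction (0.15, adjusted p = 0.538). DNMT1-AID cells did not differ from WT by the test on day 2 (log2 0.15, adjusted p = 0.678) or day 6 (0.10, adjusted p = 0.771). In the order of the 12 group means, UHRF1/DNMT1-AID on day 8 was separated from DNMT1-AID on day 8 (69.4 ± 1.86 CPM) and UHRF1-AID on day 2 from DNMT1-AID on day 2; 8 of the 11 neighbouring pairs overlapped in their libraries.

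CDKN1C sits in a cluster of imprinted genes, in which the paternally transcribed KCNQ1OT1 RNA is known to silence it in cis. Of 9 genes annotated within 100 kb, 5 passed the filter and 4 were called in at least 1 comparison with WT. In UHRF1/DNMT1-AID cells on day 8 alone, 35.7% of all protein-coding genes tested were called higher and 32.8% lower. The count of called neighbours is therefore no finding about the cluster. PHLDA2, another maternally expressed gene that restrains placental growth, was higher on day 8 in DNMT1-AID (log2 0.52, SE 0.11, adjusted p = 0.000224) and UHRF1/DNMT1-AID cells (0.66, SE 0.11, adjusted p = 2.63e-06; 723 ± 90.8 against 456 ± 16.4 CPM). These directions turned under the GC and length correction, to −0.14 and −0.42. The transporter gene SLC22A18 was lower in UHRF1/DNMT1-AID cells on day 6 (−0.86, SE 0.10, adjusted p = 1.29e-08), and on day 8 differed from WT by 0.10 (adjusted p = 0.379), which turned to −0.28 under that correction. The chromatin chaperone gene NAP1L4 differed from WT by 0.03 in the doubly depleted cells on day 8, and by −0.16 (adjusted p = 0.0316) with library size alone. KCNQ1OT1 itself was at 3.46, 4.86 and 3.92 CPM in WT and at 3.51, 3.63 and 2.71 CPM in UHRF1/DNMT1-AID cells on day 8, which overlap. The log2 fold change of CDKN1C in these cells on day 8 was 2.22, against 0.66 for PHLDA2, the highest of the neighbours named here. Under the GC and length correction these values were 1.20 and −0.42. Not all of the 4 called neighbours are described here, so the contrast does not rank CDKN1C within its cluster.

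**Figure D3:**
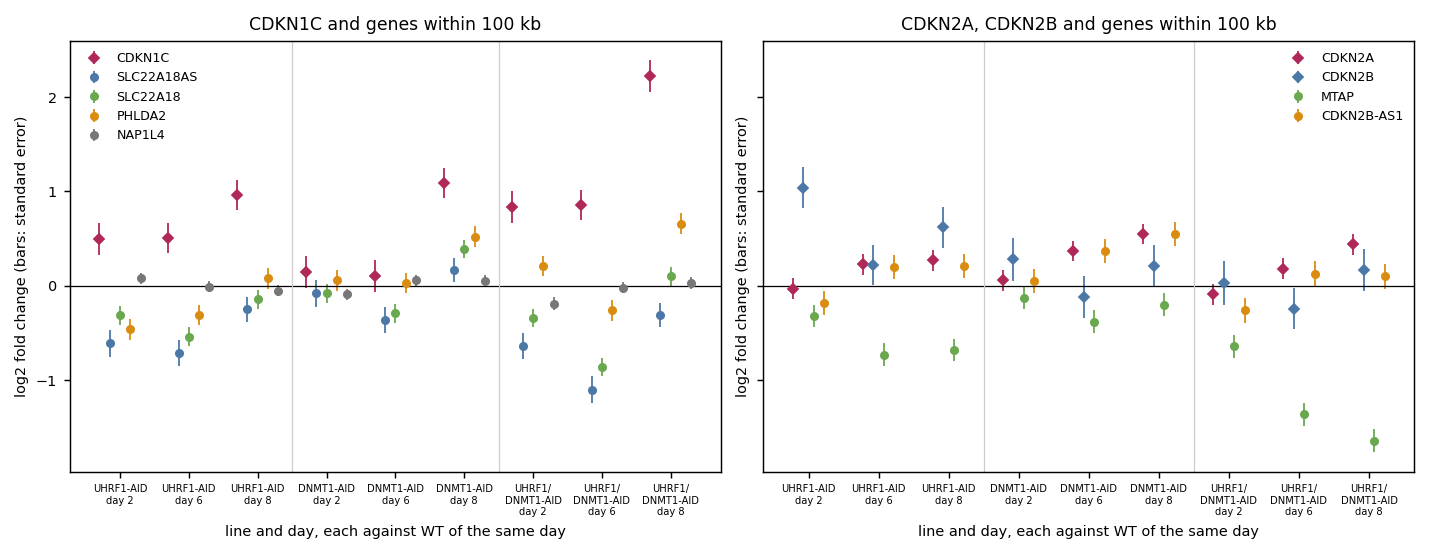
Log2 fold changes (vertical axes; bars are standard errors) against WT of the same day for CDKN1C with 4 of its neighbours (left) and for CDKN2A and CDKN2B with MTAP and CDKN2B-AS1 (right). CDKN1C stands at 2.22 in UHRF1/DNMT1-AID cells on day 8, and MTAP falls to −1.64 in the same cells.

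CDKN1A encodes p21, which stops cells after DNA damage, and lies on the plus strand of chromosome 6 (chr6:36676460-36687337, GRCh38; ENSG00000124762). Its transcript was higher than in WT on day 6 in DNMT1-AID and UHRF1/DNMT1-AID cells, and was not called on day 2 or day 8. With only the libraries of the comparison it was also called on day 2 in UHRF1-AID (0.28, adjusted p = 0.0316) and UHRF1/DNMT1-AID cells (0.17, adjusted p = 0.0348) and on day 8 in DNMT1-AID cells (0.21, adjusted p = 0.0427). The WT libraries of day 6 lay close together at 236, 239 and 238 CPM. Those of DNMT1-AID were at 316, 311 and 413 CPM (1.46-fold; log2 0.55, SE 0.13, adjusted p = 0.00303) and those of UHRF1/DNMT1-AID at 306, 295 and 372 CPM (1.37-fold; log2 0.45, SE 0.13, adjusted p = 0.00453). Both groups lay above WT in every library, with replicate 3 highest in each. Under the GC and length correction neither call held (0.32, adjusted p = 0.0655, and 0.14, adjusted p = 0.371). UHRF1-AID libraries of day 6, at 217, 306 and 264 CPM, overlapped WT. On day 8 the WT libraries gave 268, 284 and 274 CPM and the UHRF1/DNMT1-AID libraries 235, 266 and 306 CPM, a log2 difference of −0.03 (SE 0.13) that became −0.62 with an adjusted p of 4.32e-05 under the correction. In WT itself CDKN1A fell by 0.35 on the log2 scale from day 2 (297, 297 and 313 CPM) to day 6 (SE 0.13, adjusted p = 0.0147). This fall was not called with library size alone, with the correction, or without WT day 2 replicate 3 (−0.32, adjusted p = 0.0501). All 11 neighbouring pairs in the order of the 12 group means overlapped, from DNMT1-AID on day 2 (382 ± 82.5 CPM) down to WT on day 6. The exons of CDKN1A share 146 bases with the antisense gene DINOL, and their reads cannot be told apart where counting ignores strand. Repeats were counted without strand in this study, and the setting for genes is not given in the sources used here.

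The CDKN1A promoter window holds a CAGCTG site, the letters bound by AP4 (TFAP4), a MYC-induced repressor of CDKN1A, and is shown for that reason; capitals mark the site. The window is the 250 bases before the start in the RefSeq table of GRCh38.p14, chr6:36678464-36678713, plus strand, with 27 CG pairs against a median of 11 over 35114 windows.
CDKN1A: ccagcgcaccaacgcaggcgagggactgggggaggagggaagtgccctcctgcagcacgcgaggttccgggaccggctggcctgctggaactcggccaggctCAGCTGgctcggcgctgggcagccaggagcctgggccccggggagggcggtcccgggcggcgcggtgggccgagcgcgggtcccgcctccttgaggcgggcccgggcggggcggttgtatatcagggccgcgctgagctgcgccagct
CAGCTG reads the same on both strands and is in 14% of all windows and in 3 of the 10 member windows (those of CDKN1A and CDKN2B and 1 of CDKN2C), so a match is only a description. TFAP4 was lower than in WT in UHRF1-AID cells on days 2, 6 and 8 (log2 −0.46, −0.78 and −0.49) and in UHRF1/DNMT1-AID cells on day 2 (−0.46, adjusted p = 0.00776), day 6 (−1.10, adjusted p = 2.5e-08) and day 8 (−0.64, SE 0.13, adjusted p = 4.62e-05). MYC fell in the same cells on day 8, from 93.9 ± 4.11 to 37.2 ± 3.9 CPM (log2 −1.34, SE 0.16, adjusted p = 9.87e-09). The UHRF1-AID value of TFAP4 on day 2 was not called under the GC and length correction (−0.26, adjusted p = 0.0962). By the test over all libraries with TMM scaling alone, CDKN1A was called in UHRF1-AID cells on no day. In UHRF1/DNMT1-AID cells it was called on day 6 only. TFAP4 is described here only for the lines with tagged UHRF1, and MYC only for UHRF1/DNMT1-AID cells on day 8. Neither is described for DNMT1-AID cells, in which CDKN1A was called higher on day 6 with TMM scaling alone. The values given are thus no full comparison of these genes with CDKN1A. Whether TFAP4 or MYC acts on CDKN1A in these cells was not tested.

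CDKN1B encodes p27, which is known to be set mainly by protein turnover through the SKP2 ligase, and lies on the plus strand of chromosome 12 (chr12:12685498-12722369, GRCh38; ENSG00000111276). Its transcript fell on day 8 in UHRF1/DNMT1-AID cells and, by less, in DNMT1-AID cells. The WT libraries of day 8 gave 52.0, 47.8 and 48.4 CPM, and the UHRF1/DNMT1-AID libraries 35.1, 26.6 and 27.6 CPM. All 3 depleted libraries lay below WT, 1.66-fold lower in the fit (log2 −0.73, SE 0.10, adjusted p = 1.67e-07). CDKN1B has long, AT-rich exons (9255 bases, 41% GC), and under the GC and length correction the difference shrank to −0.08 (adjusted p = 0.489). DNMT1-AID libraries were at 47.0, 35.8 and 41.1 CPM (log2 −0.26, SE 0.10, adjusted p = 0.0382). That call was lost without any of the 3 WT libraries or DNMT1-AID replicate 2 or 3 (−0.35 to −0.16 over the 6 omissions), was not made with all gene types in the fit, and turned to 0.14 under the correction. UHRF1-AID libraries were at 45.6, 39.4 and 43.0 CPM (−0.21, adjusted p = 0.0883). On days 2 and 6 no line was called, with log2 values between −0.09 and 0.19; the correction gave calls above WT on day 6 in all 3 lines (0.32, 0.41 and 0.27) and on day 2 in UHRF1/DNMT1-AID cells (0.34, adjusted p = 0.00494). With only the libraries of the comparison DNMT1-AID was called on day 6 (0.19, adjusted p = 0.0285). UHRF1/DNMT1-AID on day 8 (29.8 ± 4.67 CPM) was apart from its neighbour in the order, DNMT1-AID on day 8 (41.3 ± 5.57 CPM), and 9 of 11 neighbouring pairs overlapped.

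Transcripts for the ligases that degrade p21, p27 and p57 were taken from a list of 12 genes. In UHRF1/DNMT1-AID cells on day 8, 1 was higher and 5 lower, where 35.7% of all genes were called higher and 32.8% lower, with a median log2 fold change of −0.13 against 0.03 over all genes. SKP2 fell from 33.5 ± 0.943 to 16.3 ± 3.44 CPM (log2 −1.04, SE 0.11, adjusted p = 1.75e-10). CDKN1B mRNA was lower in the same cells with TMM scaling alone (−0.73), but not called under the GC and length correction (−0.08, adjusted p = 0.489). A link between SKP2 and CDKN1B was not tested. DTL, the substrate receptor that marks p21 in S phase, fell from 50.6 ± 1 to 18.7 ± 2.51 CPM (−1.44, SE 0.13, adjusted p = 6.71e-12), and its partner DDB1 fell by 0.90 on the log2 scale. RBX1, a shared ring subunit, rose by 0.35 (adjusted p = 0.00752), a call not made with library size alone (0.16).

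CDKN2A and CDKN2B lie next to each other on the minus strand of chromosome 9 (chr9:21967752-21995301, ENSG00000147889, and chr9:22002903-22009305, ENSG00000147883, GRCh38). CDKN2A was higher on day 8 in DNMT1-AID and UHRF1/DNMT1-AID cells, and its largest change was the fall in WT from day 2 to day 6. The WT libraries of day 8 gave 92.2, 81.0 and 89.3 CPM. DNMT1-AID libraries gave 121, 126 and 136 CPM (1.46-fold; log2 0.55, SE 0.11, adjusted p = 0.000159) and UHRF1/DNMT1-AID libraries 109, 113 and 135 CPM (1.36-fold; log2 0.44, SE 0.11, adjusted p = 0.00082). Both sets lay above all WT libraries of the day. UHRF1-AID libraries, at 120, 86.8 and 109 CPM, overlapped WT (0.27, adjusted p = 0.0514), and without UHRF1-AID replicate 2 the value was 0.39 (adjusted p = 0.00716), while DESeq2 called it with all libraries (adjusted p = 0.0399). The GC and length correction kept the DNMT1-AID call (0.33, adjusted p = 0.0147) and ended that of UHRF1/DNMT1-AID (0.13, adjusted p = 0.302). On day 6 DNMT1-AID was higher (75.8, 73.3 and 81.0 against 56.3, 64.7 and 57.4 CPM; log2 0.37, SE 0.11, adjusted p = 0.027). This call was lost without WT replicate 1 or 3 or DNMT1-AID replicate 1 or 3 (0.33 to 0.43 over the 6 omissions), with library size alone, and with the correction (0.22, adjusted p = 0.184). On day 2 the lines differed from WT by −0.09 to 0.06. Of the 11 neighbouring pairs in the order of groups, 10 overlapped.

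CDKN2A has a start for the ARF transcript upstream of the start for p16, and both windows are shown because the gene count sums over them; capitals mark the CG pairs that DNMT1 and UHRF1 keep methylated where they are methylated. The windows hold 20 CG pairs (chr9:21974858-21975107, minus strand) and 24 CG pairs (chr9:21995325-21995574, minus strand), against the median of 11, in the RefSeq table of GRCh38.p14.
CDKN2A, downstream start: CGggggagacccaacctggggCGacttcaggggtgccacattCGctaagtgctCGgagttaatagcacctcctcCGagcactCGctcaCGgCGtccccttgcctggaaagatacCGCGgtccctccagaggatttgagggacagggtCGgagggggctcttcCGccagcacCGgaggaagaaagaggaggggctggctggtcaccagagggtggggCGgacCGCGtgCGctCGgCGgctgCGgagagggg
CDKN2A, upstream start: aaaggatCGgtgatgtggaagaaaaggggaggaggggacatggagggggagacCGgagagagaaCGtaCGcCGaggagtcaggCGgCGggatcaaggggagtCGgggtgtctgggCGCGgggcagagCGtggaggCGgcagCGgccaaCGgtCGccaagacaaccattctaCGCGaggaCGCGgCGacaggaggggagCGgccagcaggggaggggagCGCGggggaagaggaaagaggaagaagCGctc
Methylation was not part of the files used here, so the state of these pairs is not known from them. The long non-coding gene CDKN2B-AS1 runs antisense across the locus, and 593 bases, or 15.3%, of the CDKN2A exons overlap its exons. CDKN2B-AS1 was also higher in DNMT1-AID cells on day 8 (64.3 ± 5.73 against 44 ± 2.17 CPM; log2 0.55, SE 0.13, adjusted p = 0.000816), and differed by 0.10 in UHRF1/DNMT1-AID cells (adjusted p = 0.507). Where counting ignores strand, reads of CDKN2A and CDKN2B-AS1 in the shared exons cannot be told apart.

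CDKN2B encodes p15, the INK4 protein known to be induced by TGF-β, and was the single member whose calls against WT were confined, over the 9 comparisons, to 1 line, UHRF1-AID. The WT libraries of day 2 gave 10.0, 10.5 and 9.34 CPM, and the UHRF1-AID libraries 28.5, 11.2 and 21.5 CPM. The 3 depleted libraries lay far apart, with replicate 2 just above WT and replicate 1 highest. The fold was 2.05 (log2 1.04, SE 0.22, adjusted p = 0.000588), with 0.72 (without UHRF1-AID replicate 1) to 1.33 (without replicate 2) on the log2 scale as single libraries were left out, and the call was lost when only these 6 libraries were fitted (adjusted p = 0.0741). On day 8 the corresponding values were 9.75, 8.19 and 9.01 CPM and 15.5, 9.94 and 15.9 CPM (1.54-fold; log2 0.62, SE 0.22, adjusted p = 0.0208). That call was lost without WT replicate 2 or 3 or UHRF1-AID replicate 1 or 3 (0.51 to 0.81 over the 6 omissions, adjusted p up to 0.0948). On day 6, UHRF1-AID libraries at 13.7, 10.5 and 14.7 CPM overlapped WT at 10.7, 10.9 and 12 CPM. Replicate 2 was thus the lowest UHRF1-AID library on every day. Libraries with equal replicate numbers deviated together across days in this line (correlations of 0.186 to 0.383), so the day 2 and day 8 calls may not be independent. In DNMT1-AID and UHRF1/DNMT1-AID cells no day was called, with log2 values between −0.24 and 0.28. All 11 neighbouring pairs in the order of groups overlapped.

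MTAP, the methionine salvage gene beside CDKN2A, was lower in both lines with tagged UHRF1. In these lines, the test over all libraries with TMM scaling alone called CDKN2A higher only in UHRF1/DNMT1-AID cells on day 8. That call ended under the GC and length correction (0.13, adjusted p = 0.302). MTAP is not described here for DNMT1-AID cells, in which CDKN2A was called higher on days 6 and 8. In UHRF1/DNMT1-AID cells MTAP was lower on days 2, 6 and 8 by −0.64, −1.36 and −1.64 on the log2 scale, and on day 8 stood at 53.6 ± 3.92 against 167 ± 8.15 CPM in WT (SE 0.12, adjusted p = 1.11e-13). UHRF1-AID cells were lower by −0.32, −0.73 and −0.68, of which the day 2 call was not made with library size alone or with the correction. The long non-coding gene ENSG00000264545, which spans the locus, was lower in UHRF1/DNMT1-AID cells on day 8 (−2.51, SE 0.18, adjusted p = 3.67e-13; 7.39 ± 0.383 against 42.1 ± 1.22 CPM).

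CDKN2C encodes p18 and lies on the plus strand of chromosome 1 (chr1:50960745-50974634, GRCh38; ENSG00000123080). Unlike CDKN2A, it was lower in all 3 degron lines on day 8. The WT libraries of day 8 gave 22.8, 22.4 and 23.8 CPM. The UHRF1-AID libraries gave 19.4, 12.8 and 16.9 CPM, the DNMT1-AID libraries 12, 10.1 and 14.0 CPM and the UHRF1/DNMT1-AID libraries 8.71, 10.1 and 11.8 CPM. No degron library reached WT. The log2 fold change was −0.49 on loss of UHRF1 (SE 0.14, adjusted p = 0.00358), −0.94 on loss of DNMT1 (SE 0.14, adjusted p = 1.36e-06) and −1.17 on loss of both (SE 0.14, adjusted p = 7.13e-09), which is 2.25-fold lower. Without UHRF1-AID replicate 2 the first was −0.34 (adjusted p = 0.0525), and under the GC and length correction all 3 were larger, at −0.84, −1.32 and −1.75. On day 2 DNMT1-AID libraries at 14.4, 13.4 and 11.9 CPM were below WT at 22.1, 19.2 and 19.0 CPM (−0.60, SE 0.14, adjusted p = 0.0134), a call lost without WT replicate 1 (−0.53, adjusted p = 0.115) or DNMT1-AID replicate 3 (−0.53, adjusted p = 0.101). UHRF1/DNMT1-AID libraries at 12.3, 12.8 and 10.6 CPM were 1.69-fold below WT (−0.75, SE 0.14, adjusted p = 0.000158). On day 6 the 3 lines lay at 14.9 to 22.5 CPM around WT at 17.0 to 18.8 CPM, with no call. The correction called DNMT1-AID lower on day 6 (−0.40, adjusted p = 0.0368) and UHRF1-AID lower on day 2 (−0.41, adjusted p = 0.0186), where the values without it were −0.17 (adjusted p = 0.477) and −0.27 (adjusted p = 0.16). In the order of groups 10 of 11 neighbouring pairs overlapped. The exons share 617 bases, 20.4% of them, with the antisense gene ENSG00000290102, with the same limit.

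CDKN2D encodes p19, the INK4 protein whose transcript is known to rise in S phase, and lies on the minus strand of chromosome 19 (chr19:10566460-10569059, GRCh38; ENSG00000129355). It was higher early in the lines with tagged UHRF1. On day 2 the WT libraries gave 19.0, 16.5 and 18.1 CPM, the UHRF1-AID libraries 27.7, 32.0 and 29.1 CPM and the UHRF1/DNMT1-AID libraries 34.7, 27.4 and 27.8 CPM. Both depleted groups lay above WT throughout, 1.65-fold in UHRF1-AID (log2 0.72, SE 0.11, adjusted p = 7.95e-06) and 1.67-fold in UHRF1/DNMT1-AID (0.74, SE 0.11, adjusted p = 8.57e-06). On day 6 the log2 values were 0.49 (adjusted p = 0.00133) and 0.69 (adjusted p = 8.83e-06). On day 8 UHRF1-AID was no longer called (0.13, adjusted p = 0.362), and UHRF1/DNMT1-AID was, at 19.3, 23.5 and 20.5 against 14.5, 13.6 and 16.5 CPM (0.50, SE 0.11, adjusted p = 0.000252). DNMT1-AID cells were called on no day, with log2 values of 0.30, 0.28 and 0.02, though day 6 was called with only the libraries of the comparison (0.27, adjusted p = 0.0356). The exons of CDKN2D are short and GC-rich (1505 bases, 62.1% GC). Under the GC and length correction the day 2 calls held (0.53 and 0.27), the day 6 calls did not (0.12, adjusted p = 0.373, and 0.16, adjusted p = 0.175), and on day 8 all 3 lines were called lower than WT (−0.45, −0.62 and −0.55), so the direction on day 8 depends on that choice. In the order of groups 10 of 11 neighbouring pairs overlapped.

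**Figure D4:**
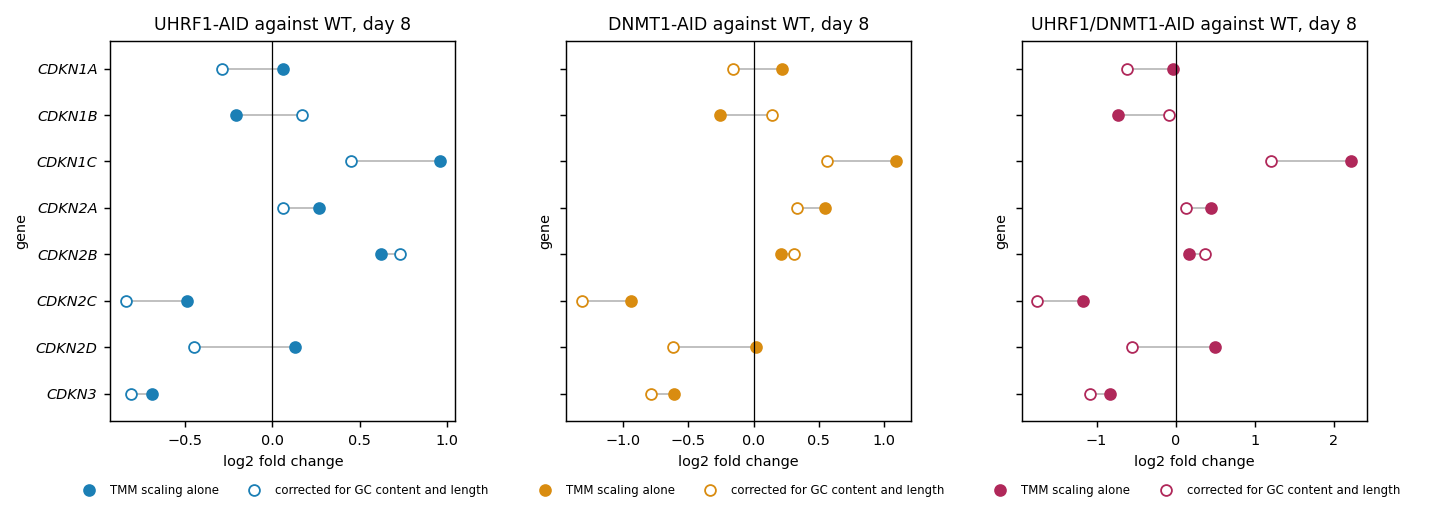
Log2 fold changes on day 8 against WT (horizontal axes, a different scale in each panel) for the 8 genes, with filled circles for TMM scaling alone and open circles after the GC and length correction. CDKN2D crosses 0 in all 3 lines, from 0.50 to −0.55 in UHRF1/DNMT1-AID cells, while CDKN1C, CDKN2C and CDKN3 keep their sides.

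CDKN3 lies on the plus strand of chromosome 14 (chr14:54396849-54420218, GRCh38; ENSG00000100526). It was lower in all 3 degron lines on day 8 and higher in UHRF1/DNMT1-AID cells on day 6. On day 8 the WT libraries gave 25.1, 23.0 and 22.5 CPM, the UHRF1-AID libraries 14.3, 18.0 and 11.5 CPM, the DNMT1-AID libraries 15.0, 17.6 and 13.5 CPM and the UHRF1/DNMT1-AID libraries 13.1, 11.7 and 14.9 CPM. All 9 depleted libraries were below WT. The log2 fold changes were −0.69 (SE 0.12, adjusted p = 2.07e-05), −0.61 (SE 0.12, adjusted p = 0.00011) and −0.83 (SE 0.12, adjusted p = 4.37e-07), or 1.61-, 1.53- and 1.78-fold lower. On day 6 the UHRF1/DNMT1-AID libraries, at 23.8, 23.6 and 24.7 CPM, were all above WT at 17.6, 17.4 and 17.2 CPM (1.38-fold; log2 0.46, SE 0.12, adjusted p = 0.00225). In UHRF1-AID cells CDKN3 was lower on day 2 (31.4, 37.6 and 27.4 against 40.8, 48.9 and 39.6 CPM; −0.42, SE 0.12, adjusted p = 0.00642), a call lost without WT replicate 2 (−0.32, adjusted p = 0.0668) or UHRF1-AID replicate 3 (−0.32, adjusted p = 0.0554). UHRF1/DNMT1-AID differed from WT by 0.00 on the log2 scale there, and under the GC and length correction was called lower (−0.27, adjusted p = 0.0214). That correction also moved the UHRF1-AID value of day 2 to −0.76 and the UHRF1/DNMT1-AID value of day 6 to 0.27, and the day 8 calls held under all alternatives tried. With 4 of 11 neighbouring pairs apart, CDKN3 had the best separated order of groups of the 8.

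Mitotic genes, whose transcripts are known to peak late in the cell cycle as that of CDKN3 does, were lower on day 8 as well. Of 26 listed and tested, 26 were lower in UHRF1-AID cells, 25 in DNMT1-AID cells and 25 in the doubly depleted cells, and 0 were higher, with medians of −0.74, −0.70 and −1.32. Of all genes, 21%, 22.4% and 32.8% were lower in these comparisons, with medians of 0.03, 0.02 and 0.03. On day 6 those called were mostly higher (8, 8 and 12 higher against 14.3%, 8.84% and 19% of all genes, and 1, 0 and 0 lower against 10.5%, 4.35% and 21.9%). On day 2 the counts lower were 17, 1 and 20, against 14.4%, 0.714% and 11.5% of all genes. The counts of lower mitotic genes on day 8 were 26, 26 and 26 with library size alone and 21, 23 and 24 with the GC and length correction. PLK1, a mitotic kinase gene, fell from 168 ± 14 to 44.2 ± 6.86 CPM in UHRF1/DNMT1-AID cells on day 8 (log2 −1.93, SE 0.11, adjusted p = 1.66e-16), and the checkpoint kinase gene BUB1 fell from 84.1 ± 2.05 to 23.4 ± 4.17 CPM (−1.84, SE 0.10, adjusted p = 1.31e-16). The fall of CDKN3, at −0.83, was smaller than the median of the list in those cells.

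The CDKN3 promoter window is shown because it holds TTTGAA, the letters of the cell cycle genes homology region (CHR) that many mitotic genes share; capitals mark it. It is chr14:54396757-54397006, plus strand, in the RefSeq table of GRCh38.p14, with 21 CG pairs.
CDKN3: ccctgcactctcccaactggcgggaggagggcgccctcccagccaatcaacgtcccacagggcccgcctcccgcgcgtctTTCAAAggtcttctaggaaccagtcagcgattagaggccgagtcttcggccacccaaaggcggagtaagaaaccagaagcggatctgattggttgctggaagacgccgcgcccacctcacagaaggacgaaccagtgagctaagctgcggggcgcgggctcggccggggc
TTTGAA, searched on both strands, is in 13.3% of the 35114 windows and in 1 of the 10 windows found for 7 of the 8 members. CDKN1C has no entry in the table.

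The partners of the inhibitors were taken from lists as well. Of 12 cyclin and CDK genes, 2 were higher and 8 lower on day 8 in each of the 3 lines, with medians of −0.56, −0.40 and −0.77. Of all genes, 24.2%, 25.1% and 35.7% were higher and 21%, 22.4% and 32.8% lower. CCNA2, the S phase cyclin gene, fell in UHRF1/DNMT1-AID cells from 112 ± 7.58 to 28.2 ± 2.13 CPM (log2 −1.99, SE 0.10, adjusted p = 2.46e-18). CDK2, a main target of p21, p27 and p57, fell from 99.6 ± 3.37 to 37.5 ± 5.54 CPM (−1.41, SE 0.10, adjusted p = 2.7e-14). The D-type cyclin genes CCND3 and CCND2 went the other way: CCND3 was higher by 0.41 (SE 0.09, adjusted p = 0.000206), and CCND2 had no read in the WT libraries of day 8 and stood at 1.01 ± 0.402 CPM in UHRF1/DNMT1-AID cells (adjusted p = 1.83e-06). Of 13 RB family and E2F genes, 0 were higher and 10 lower in UHRF1/DNMT1-AID cells on day 8, with a median of −0.75, and E2F8, a repressor E2F, fell from 14.9 ± 0.72 to 2.3 ± 0.724 CPM (−2.70, SE 0.21, adjusted p = 3.86e-13). RB1 itself was lower by −0.53 (SE 0.10, adjusted p = 1.64e-05), which turned to 0.21 under the GC and length correction, where 4 genes of the list were higher and 8 lower.

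Among 25 genes known to regulate the inhibitors, 4 were higher and 14 lower in UHRF1/DNMT1-AID cells on day 8, against 35.7% and 32.8% of all genes, with a median of −0.37 against 0.03. Polycomb genes, which silence CDKN2A, were among those lower: EZH2 fell from 48.2 ± 0.215 to 23.9 ± 4.59 CPM (log2 −1.02, SE 0.11, adjusted p = 4.39e-10) and SUZ12 by 0.92 on the log2 scale. ETS2, an activator of CDKN2A, was higher in all 3 lines on day 8, by 1.21 on loss of UHRF1, 1.05 on loss of DNMT1 and 0.94 (SE 0.17, adjusted p = 2.55e-05) on loss of both. ID1, which holds ETS factors back, was higher by 0.62 and turned to −0.34 under the GC and length correction. With that correction the list as a whole had 7 genes higher and 9 lower. Not all Polycomb genes of the list are described here. On day 8 CDKN2A itself was not called in UHRF1-AID cells (0.27, adjusted p = 0.0514). It was called in the other 2 lines, in UHRF1/DNMT1-AID cells not under the correction (0.13, adjusted p = 0.302). Whether any of these regulators acts on CDKN2A in these cells was not tested.

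The degron lines were next compared with each other on the same day, to ask whether loss of both proteins differed from loss of either. On day 8 the largest difference was in CDKN1C, where UHRF1/DNMT1-AID exceeded UHRF1-AID 2.39-fold (log2 1.26, SE 0.16, adjusted p = 3.38e-07) and DNMT1-AID 2.19-fold (1.13, SE 0.16, adjusted p = 1.22e-06). Without UHRF1/DNMT1-AID replicate 2 these log2 values were 0.87 and 0.74, and under the GC and length correction 0.75 and 0.64, all called. CDKN1B was lower in the doubly depleted cells than in UHRF1-AID (−0.52, SE 0.10, adjusted p = 0.000128) and DNMT1-AID (−0.48, SE 0.10, adjusted p = 0.000355). CDKN2D was higher than in both, by 0.37 (adjusted p = 0.00818) and 0.48 (adjusted p = 0.000859), and CDKN2C was lower than in UHRF1-AID (−0.68, SE 0.14, adjusted p = 0.000221). Under the GC and length correction the CDKN2D differences became −0.10 and 0.07, and that of CDKN1B from DNMT1-AID lost its call (−0.22, adjusted p = 0.0683). Without UHRF1/DNMT1-AID replicate 2 the CDKN2D difference from UHRF1-AID was 0.28 (adjusted p = 0.0739), and it was not called with library size alone. In all, 4 members were called on day 8 between UHRF1/DNMT1-AID and UHRF1-AID, where 43.8% of all genes were, and 3 between UHRF1/DNMT1-AID and DNMT1-AID, where 46.1% were.

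On days 2 and 6 UHRF1/DNMT1-AID exceeded DNMT1-AID in CDKN1C (0.69, adjusted p = 0.00561, and 0.77, adjusted p = 0.000943) and CDKN2D (0.44, adjusted p = 0.00942, and 0.41, adjusted p = 0.00725). On day 6 CDKN1B was lower (−0.29, adjusted p = 0.0383), a call that 5 of 8 alternatives did not make and that was lost without DNMT1-AID replicate 1 or 3 or UHRF1/DNMT1-AID replicate 1 or 3 (−0.36 to −0.22 over the 6 omissions). The CDKN2D calls were lost without UHRF1/DNMT1-AID replicate 1 on day 2 (0.32, adjusted p = 0.112) and replicate 3 on day 6 (0.31, adjusted p = 0.0625). Under the GC and length correction they became 0.14 and 0.20 without a call, and CDKN1C on day 2 became 0.37 (adjusted p = 0.13). Members called were 2 on day 2 (10.8% of all genes) and 3 on day 6 (23.1%). Against UHRF1-AID, UHRF1/DNMT1-AID was lower in CDKN2B (−1.0, adjusted p = 0.00144) and CDKN2C (−0.49, adjusted p = 0.0156) and higher in CDKN3 (0.43, adjusted p = 0.00999) on day 2, where 17.7% of all genes were called. The CDKN2B libraries overlapped, and with only the libraries of the comparison none of the 3 was called. CDKN2C also lost its call without UHRF1-AID replicate 2 or 3 or UHRF1/DNMT1-AID replicate 3 (−0.63 to −0.39 over the 6 omissions), and CDKN3 without UHRF1-AID replicate 3 (0.32, adjusted p = 0.075). On day 6 CDKN3 alone was called (0.45, adjusted p = 0.0118; 10.8% of all genes). It was not called under the GC and length correction or without UHRF1-AID replicate 3 (0.43, adjusted p = 0.0575).

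UHRF1-AID and DNMT1-AID differed on day 2 in 3 members, CDKN2B (0.76, adjusted p = 0.0123, with overlapping libraries), CDKN2D (0.42, adjusted p = 0.00703) and CDKN3 (−0.50, adjusted p = 0.00236), where 19.9% of all genes were called. The CDKN2B difference was 0.44 (adjusted p = 0.163) without UHRF1-AID replicate 1 and 0.64 (adjusted p = 0.0774) without DNMT1-AID replicate 2, and was not called with only the libraries of the comparison (0.81, adjusted p = 0.196). On day 6 CDKN1A was lower in UHRF1-AID (−0.40, adjusted p = 0.0342; 10.6% of all genes), and the value was −0.29 without UHRF1-AID replicate 1, −0.41 without its replicate 3 and −0.26 without DNMT1-AID replicate 3, none of them called. It was not called with library size alone (adjusted p = 0.0709) or with only the libraries of the comparison (adjusted p = 0.141) either. On day 8 CDKN2C was higher in UHRF1-AID (0.45, adjusted p = 0.0222; 18.3% of all genes), with overlapping libraries. The call was lost without UHRF1-AID replicate 1 or 3 or DNMT1-AID replicate 1 or 2 (0.31 to 0.59 over the 6 omissions) and with only the libraries of the comparison (adjusted p = 0.126). CDKN1C, at 63.7 ± 5.25 CPM in UHRF1-AID and 69.4 ± 1.86 CPM in DNMT1-AID cells, was not called between these lines on day 8 (−0.12, adjusted p = 0.625).

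WT cells, which keep both proteins, also changed over the days of Dox/Auxin. From day 2 to day 6, 4 members fell, where 67.7% of all genes were called in either direction. CDKN3 fell 2.48-fold, from 40.8, 48.9 and 39.6 to 17.6, 17.4 and 17.2 CPM (log2 −1.31, SE 0.12, adjusted p = 1.06e-11), and CDKN2A fell 1.98-fold, from 115, 121 and 117 to 56.3, 64.7 and 57.4 CPM (−0.99, SE 0.11, adjusted p = 1.88e-09). The libraries of the days did not overlap for either gene. The fall of CDKN3 was −0.40 (adjusted p = 0.00033) under the GC and length correction, and that of CDKN2A −1.01. CDKN1A (−0.35) and CDKN2D (−0.32, adjusted p = 0.015) fell by less, and neither was called with library size alone or with the correction. CDKN2D was not called without WT day 2 replicate 1 (−0.27, adjusted p = 0.0719) or WT day 6 replicate 1 (−0.25, adjusted p = 0.0896) either. From day 6 to day 8, CDKN2A (0.56, SE 0.11, adjusted p = 0.00029), CDKN3 (0.43, adjusted p = 0.00526) and CDKN2C (0.37, adjusted p = 0.0313) rose, where 34.5% of all genes were called. CDKN2C lost its call without WT day 6 replicate 1 or 2 or WT day 8 replicate 1 or 3 (0.34 to 0.42 over the 6 omissions), and CDKN3 lost it under the correction (0.23, adjusted p = 0.0646). Day 8 stayed below day 2 in CDKN2A (−0.43, adjusted p = 0.00135), CDKN3 (−0.87, adjusted p = 9.76e-08) and CDKN2D (−0.26, adjusted p = 0.0487), where 59.8% of all genes were called; without WT day 2 replicate 1 or 3 or WT day 8 replicate 1 or 2 CDKN2D was not called (−0.35 to −0.21 over the 6 omissions). Under the correction CDKN3 was not called for day 8 against day 2 (−0.17, adjusted p = 0.127).

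The change of the difference from WT between day 2 and day 8 was tested as an interaction. The test called 1 member on loss of UHRF1 (17.8% of all genes), 3 on loss of DNMT1 (16.3%) and 4 on loss of both (38.7%). The gain of CDKN1C was 0.93 on the log2 scale in DNMT1-AID cells (SE 0.23, adjusted p = 0.00637; 0.46 and not called under the GC and length correction) and 1.38 in UHRF1/DNMT1-AID cells (SE 0.23, adjusted p = 2.11e-05; 0.73, adjusted p = 0.0188, under the correction). CDKN1B in UHRF1/DNMT1-AID cells moved by −0.81 (SE 0.15, adjusted p = 3.73e-05) between the same days.

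The members of a family were also summed, in CPM per kb. On day 6 the CIP/KIP sum was 94.8 ± 0.989 CPM per kb in WT, 133 ± 19.6 on loss of DNMT1 and 132 ± 12.8 on loss of both proteins, with CDKN1A at 83.6%, 87% and 82.1% of it. The sum was 110 ± 3.46 CPM per kb in WT and 154 ± 27.1 in UHRF1/DNMT1-AID cells on day 8. On that day CDKN1C made up 11.9% of that sum in WT, 20.4% and 20.2% in the UHRF1-AID and DNMT1-AID lines, and 38.9% when both were depleted. The share of CDKN1A went from 83.2% in WT to 58.9% in the last. Its own level there differed from WT by −0.03 on the log2 scale with TMM scaling alone. Under the GC and length correction that difference was −0.62 (adjusted p = 4.32e-05), and that of CDKN1C was 1.20 instead of 2.22. Sums and shares were taken with TMM scaling alone. These shares are means, and CDKN1C ranged from 112 to 223 CPM in those UHRF1/DNMT1-AID libraries, with replicate 2 highest. The INK4 sum was 42.3 ± 2.55 CPM per kb in WT and 50.5 ± 4.51 in UHRF1/DNMT1-AID cells on day 8, of which CDKN2C was 18.1% and 6.66%. On day 2 CDKN2D was 23.2% of the INK4 sum in WT and 36.2% in UHRF1/DNMT1-AID cells. Sums and shares also depend on the length of all annotated exons of each gene, which may exceed that of the transcripts made here. These sums are of transcripts and say nothing of protein amounts.

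**Figure D5:**
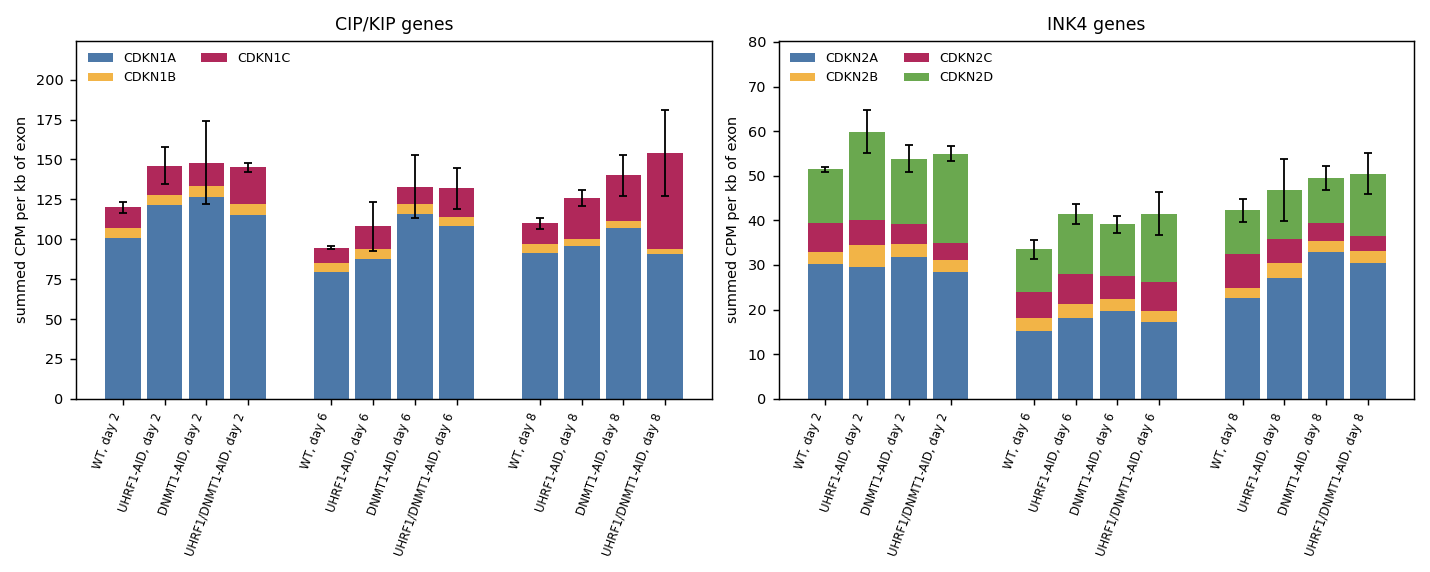
Summed CPM per kb of exon (vertical axes, from 0) of the 3 CIP/KIP genes (left) and the 4 INK4 genes (right) in the 12 groups, stacked by gene; stacked heights are means of 3 libraries and error bars are the SD of the sum. The CDKN1C part is largest in UHRF1/DNMT1-AID cells on day 8, at 38.9% of the CIP/KIP sum.

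Likeness between genes was described by Pearson's r over the 12 group means of log2 CPM, among 11674 genes with a mean of at least 5 CPM; the groups share libraries of 4 lines and the values carry no test. The genes most like CDKN1C were VSIR (r = 0.980), SGF29 (0.975) and BSG (0.974). Those most like CDKN1B were CBR4 (0.985), DSE (0.984) and ENSG00000264187 (0.980). Those most like CDKN1A were S100A2 (0.894), BTG2 (0.878) and TOB1 (0.870), of which BTG2 holds back proliferation. CDKN2A was most like GIPC1 (0.982), FAHD1 (0.982) and LHPP (0.975), and CDKN2B most like BMERB1 (0.862), CPE (0.823) and ARMCX5 (0.819). CDKN2C was most like TCF19 (0.946), TEX2 (0.903) and NVL (0.891), and CDKN2D most like MXD1 (0.931), a MYC antagonist, BDNF (0.926) and TPST1 (0.925). CDKN3 was most like AMD1 (0.970), SLC30A6 (0.969) and UBE2T (0.968). Among the members themselves, CDKN1B and CDKN3 had an r of 0.752, CDKN1B and CDKN1C of −0.797 and CDKN1C and CDKN2C of −0.715, while the adjacent CDKN2A and CDKN2B had 0.147.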

How the data were processed

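PolyA RNA of 36 HCT116 libraries (4 lines, 3 days, 3 replicates) was prepared with the NEB Next Ultra RNA kit. The authors trimmed reads with Trim Galore, aligned them to hg38 with STAR and deposited raw read counts per gene made with featureCounts. The study counted repeats in a non-stranded mode; for the gene counts, the annotation release, strand setting and treatment of multi-mapped reads are not given in the sources used here. Groups were taken from the labels. Of 60648 rows per file, 60462 matched GENCODE release 44 by ID, 186 did not, and 0 named no gene.

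Protein-coding genes passing filterByExpr (minimum count 10) were fitted over all 36 libraries with edgeR 4.0.16 (TMM scaling, factors 0.8255 to 1.203, robust quasi-likelihood test, 24 residual degrees of freedom) in R 4.3.3, 1 coefficient per group, with Benjamini-Hochberg adjustment over 15415 genes and a threshold of 0.05 at any fold. The SE is the absolute log2 fold change over the root of the F value. CPM are TMM-scaled. In all, 24 comparisons were made: 9 with WT, 9 between lines, 3 between WT days and 3 changes of effect. Neighbours were tested in a fit on all gene types. The scripts were tested on simulated data. Alternatives were DESeq2 (1.42.0), its size factors, library size alone, no filter, all gene types, a replicate block, a correction for GC content and transcript length (splines with 4 degrees of freedom each, which removes any library difference running with these, whatever its source), only the libraries compared, and the omission of each library.

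The members and lists were chosen with earlier results of these data known. Genes named besides the members were RB1, MYC, TFAP4, the targeted genes, up to 3 of smallest p per list and direction in UHRF1/DNMT1-AID against WT on day 8, the 3 genes most like each member, and called genes within 100 kb; KCNQ1OT1 was added outside this rule after its values were seen. A gene of this rule and the list tied to it are not reported here.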

Additional observations from a re-analysis of the deposited data

Results flagged for a closer look

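The difference from WT changed between day 2 and day 8 for 8 combinations of gene and line, by the interaction term of edgeR's quasi-likelihood test with Benjamini-Hochberg adjustment. All values are day 8 minus day 2 on the log2 scale, and the 3 lines share the WT libraries.

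CDKN1C gained 0.93 in DNMT1-AID cells (SE 0.23, adjusted p = 0.00637) and 1.38 in UHRF1/DNMT1-AID cells (SE 0.23, adjusted p = 2.11e-05). The former was 0.46 (adjusted p = 0.233) once differences running with GC content and transcript length were removed. The latter was 0.73 (adjusted p = 0.0188) with the same correction and 1.0 without UHRF1/DNMT1-AID day 8 replicate 2, the lowest of its 12 omissions. CDKN1B moved by −0.81 in UHRF1/DNMT1-AID cells (SE 0.15, adjusted p = 3.73e-05).

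CDKN2A gained 0.48 in DNMT1-AID cells (SE 0.16, adjusted p = 0.0338) and 0.53 in UHRF1/DNMT1-AID cells (SE 0.16, adjusted p = 0.00781). The DNMT1-AID call was lost with library size alone, with the GC and length correction (0.30), and without WT day 2 replicate 2 or 3, WT day 8 replicate 2, DNMT1-AID day 2 replicate 2 or DNMT1-AID day 8 replicate 2 or 3 (0.43 to 0.54 over the 12 omissions). The UHRF1/DNMT1-AID call was lost with the correction (0.31, adjusted p = 0.13).

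CDKN2D moved by −0.59 in UHRF1-AID cells (SE 0.16, adjusted p = 0.00861), from a higher level than WT on day 2 to no call on day 8. CDKN3 moved by −0.68 in DNMT1-AID cells (SE 0.17, adjusted p = 0.00503) and by −0.83 in UHRF1/DNMT1-AID cells (SE 0.17, adjusted p = 0.000198).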

How the results depend on the processing

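Of 192 values for the 8 genes over 24 comparisons, 70 were called. The share of all genes called differed widely between comparisons, as given with each above, so this count is no finding about the 8 genes. Counts of members under other settings and omissions are given below without the shares of all genes. They describe only how the calls moved. Directions turned in 10 cases in which a value was called before or after, all under the GC and length correction: CDKN1A in UHRF1-AID on day 8 (−0.29), CDKN2D on day 8 in all 3 degron lines (UHRF1-AID −0.45, DNMT1-AID −0.62, both proteins −0.55), CDKN1B in DNMT1-AID on day 8 (0.14) and UHRF1/DNMT1-AID on day 6 (0.27), CDKN3 in UHRF1/DNMT1-AID on day 2 (−0.27), CDKN2D between UHRF1/DNMT1-AID and UHRF1-AID on day 2 (−0.26) and day 8 (−0.10), and CDKN1C in WT from day 2 to day 8 (−0.41). The cause was not tested. Counts of members called moved under that correction to 1 (UHRF1-AID day 6), 5 (UHRF1/DNMT1-AID day 2), 0 (UHRF1/DNMT1-AID against UHRF1-AID, day 6), 0 and 1 (against DNMT1-AID, days 2 and 6) and 1 (WT, day 8 against day 6). With library size alone they were 1 (DNMT1-AID day 6), 5 (UHRF1-AID against DNMT1-AID, day 2) and 2 (WT, day 6 against day 2), and with only the libraries compared 4 (DNMT1-AID day 6), 0 (UHRF1-AID against DNMT1-AID, day 8), 0 (UHRF1/DNMT1-AID against UHRF1-AID, day 2), 7 and 6 (WT, days 6 and 8 against the preceding day) and 2 (change of effect in UHRF1-AID). Library size alone moved the median of all genes by up to 0.357 (WT, day 6 against day 2), and by −0.150 and −0.154 on day 8 in DNMT1-AID and UHRF1/DNMT1-AID, where the share of higher genes among all called went from 52.8% to 30.9% and from 52.1% to 39.6%; on day 2 in DNMT1-AID it went from 78.9% to 28%.

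Leaving out 1 library at a time gave 2 to 4, 1 to 2 and 3 to 4 members called on days 2, 6 and 8 in UHRF1-AID, 0 to 1, 1 to 2 and 4 to 5 in DNMT1-AID, and 3, 4 and 6 throughout in UHRF1/DNMT1-AID. Between UHRF1-AID and DNMT1-AID it gave 2 to 3, 0 to 1 and 0 to 1, between UHRF1/DNMT1-AID and UHRF1-AID 1 to 3, 0 to 2 and 3 to 5, and between UHRF1/DNMT1-AID and DNMT1-AID 1 to 2, 1 to 3 and 3 to 4. For WT days it gave 3 to 4, 2 to 3 and 2 to 3, and for the change of effect 1, 2 to 4 and 4 to 5.

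Equal replicate numbers did not pair the lines: the correlation of deviations had a median of 0.0118 (−0.0805 to 0.127), and 3 of 54 exceeded 0.1. A replicate block gave 2 members between UHRF1/DNMT1-AID and UHRF1-AID on day 6, against 1 without it, and also called CDKN2A in UHRF1-AID on day 8 (0.26, adjusted p = 0.0383), CDKN1A between UHRF1/DNMT1-AID and DNMT1-AID on day 8 (−0.26, adjusted p = 0.0381) and CDKN1B in WT for day 8 against day 2 (−0.22, adjusted p = 0.0395). No call of a member was lost with it. Within UHRF1-AID and DNMT1-AID, equal numbers did correlate across days (0.186 to 0.383 and 0.119 to 0.287). In UHRF1/DNMT1-AID the correlations ran from −0.0706 to 0.309, with 4 of 9 over 0.1, and in WT from −0.0497 to 0.0302. A block within line, chosen after seeing the data, gave −0.35 (adjusted p = 0.0448) for the change of CDKN1B in DNMT1-AID. Depth limits CDKN2B most, at 156 to 628 reads per library.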
